A study of Mus musculus with 24 samples.

Results

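Brain and heart are both organs of electrically excitable cells, neurons in the first and heart muscle cells in the second. They were compared here by H3K4m3-Seq, chromatin immunoprecipitation and sequencing of H3K4m3, the trimethylated form of lysine 4 on histone H3. The members were chosen by organ label: 6 of the 24 samples of the series were H3K4m3 samples of mouse brain or heart, 2 frozen and 4 FFPE (formalin-fixed and paraffin-embedded). They are represented by 4 of the 8 columns of the deposited gene table, 1 each for FFPE brain, frozen brain, FFPE heart and frozen heart, and each column is called a library below. All tissue came from mice whose organs were flash frozen or fixed in 10% formalin and put in paraffin. FFPE and frozen chromatin were prepared by different procedures, and no source used here says whether an FFPE column stands for 1 of its organ's FFPE samples or for their sum. No genotype, strain, age, sex or treatment other than preservation was stated in the sources used here, and the labels do not say whether libraries came from separate animals. Of the 27179 genes in the table, 25636 reached a mean of 0 on the log2 scale over these 4 libraries and were tested.

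Trimethylation of lysine 4 on histone H3 is placed around transcription start sites by the SET1 and MLL methyltransferase complexes. It is found at promoters of genes that are transcribed or held ready for transcription, most often promoters rich in CpG dinucleotides. In neurons it lies at genes for synapses, ion channels and neuronal regulators, and in heart muscle cells at genes for the contractile apparatus and the cardiac transcription factors. Both organs also hold blood vessels, connective tissue cells and immune cells, and the brain holds glia. In such bulk tissue, fewer cells of a type and less of the mark per cell cannot be told apart.

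Depth was 4811825 reads in FFPE brain and 2513301 in frozen brain, against 3388631 in FFPE heart and 1792394 in frozen heart. A count of 0 reads allowed up to 3 reads, which corresponded to 0.569 CPM in FFPE brain, the deepest library, and 1.69 in frozen heart, the shallowest. Values are the deposited log2 of reads scaled to library size, written log2 CPM, and a difference is the log2 value of brain minus that of heart. Genes were tested with limma, with organ and preservation as terms, and a gene is said to be called when its Benjamini-Hochberg adjusted p over all tested genes was under 0.05. The p-values reflect only how far these 4 libraries scatter, and that scatter may be technical.

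The markers chosen for the organs followed the labels. Grin1, the obligatory subunit of NMDA glutamate receptors, had 7.27 log2 CPM in FFPE brain and 7.25 in frozen brain, against 4.92 in FFPE heart and 5.19 in frozen heart. Syt1, the calcium sensor of synaptic vesicle release, had 6.19 and 6.42 in FFPE and frozen brain, against 4.11 and 4.06 in FFPE and frozen heart. Nkx2-5, a transcription factor of heart muscle cells, had 2.94 and 1.64 in FFPE and frozen brain, against 5.19 and 5.00 in FFPE and frozen heart. Both brain libraries lay above both heart libraries at Grin1 and Syt1 and below them at Nkx2-5. The reads carry no strand, so those at Grin1 may include reads of the overlapping Lrrc26 and Grin1os. Pecam1, an adhesion molecule of the endothelium that lines vessels, had 4.60 and 3.88 in FFPE and frozen brain, against 6.57 and 6.08 in FFPE and frozen heart. The differences (± SE) were 2.21 ± 0.20 for Grin1, 2.22 ± 0.24 for Syt1, -2.80 ± 0.41 for Nkx2-5 and -2.08 ± 0.24 for Pecam1, with limma adjusted p of 4.0e-05 or less at each.

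Brain and heart differed at 2975 of the 25636 tested genes, 11.6% of them: 1539 were higher in brain (6.00%) and 1436 were lower in brain (5.60%). The difference was at least 2-fold at 1106 of the higher and 969 of the lower genes, and at least 4-fold at 272 and 162. Both brain libraries lay on one side of both heart libraries at 1465 of the higher and 1357 of the lower genes, which was so at 32.0% of all tested genes. Called differences had a median size of 1.12 in FFPE tissue and 1.36 in frozen tissue. The number called depended on how the spread was estimated. With 1 residual degree of freedom in the 4 libraries, limma borrowed most of its estimate from genes of like level, and when that level trend was left out 0 genes passed in limma (4034 at an unadjusted p under 0.05). A fit that added the kidney and liver libraries called 1623 genes, 772 higher and 851 lower, and leaving 1 library out of that fit gave 956 with FFPE brain left out, 276 without frozen brain, 631 without FFPE heart and 555 without frozen heart. These fits of 8 libraries, and of 7 with 1 left out, are given beside the gene groups below.

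**Figure D1:**
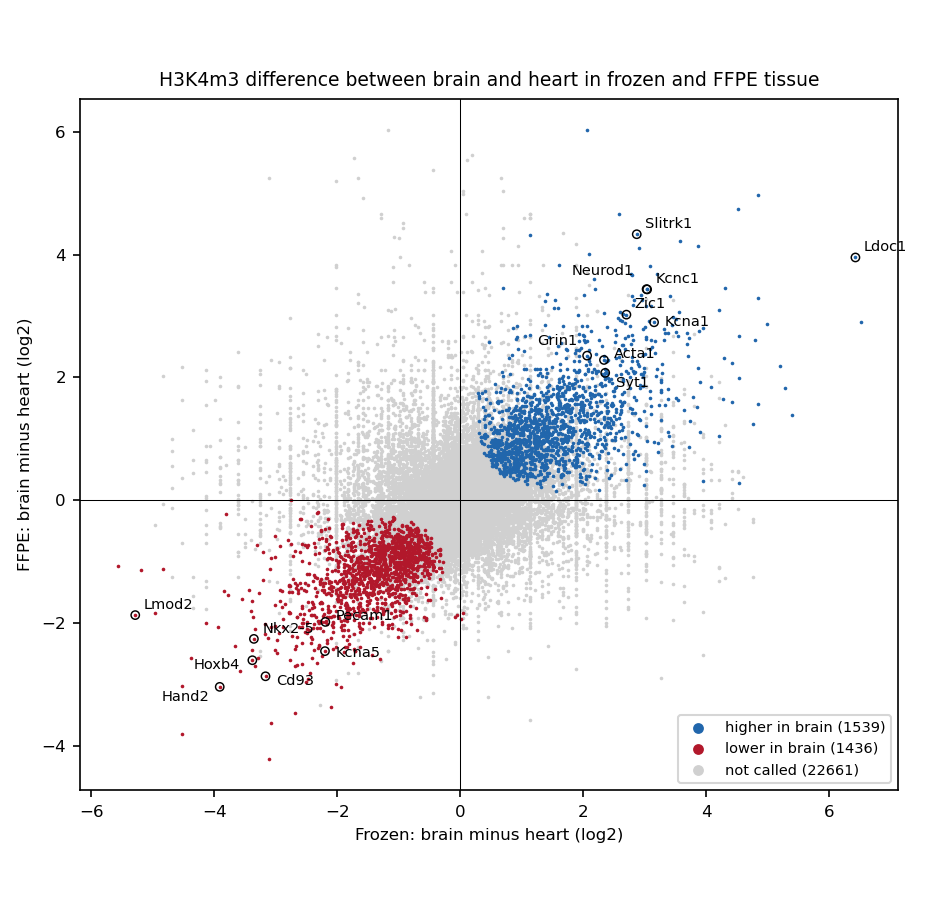
H3K4m3 difference of brain minus heart (log2) in frozen tissue (horizontal axis) and FFPE tissue (vertical axis), 1 point per tested gene. The 1539 genes called higher in brain lie in the upper right, the 1436 called lower in brain lie in the lower left with 3 exceptions, and the 22661 genes not called fill the centre; the vertical lines of points are genes with few reads in frozen tissue.

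Of the 10 genes with the largest differences toward brain, the one with the most reads in brain was Slitrk1 (chr14:108909988-108914239, GRCm38), which encodes a neuronal membrane protein of synapse formation and neurite growth. Slitrk1 had 7.89 log2 CPM (1250 reads) in FFPE brain and 8.38 (800 reads) in frozen brain, against 3.56 (38 reads) in FFPE heart and 5.51 (80 reads) in frozen heart. The brain libraries did not overlap with the heart libraries, and the difference was 3.60 ± 0.24, or 12.1-fold (limma adjusted p = 1.8e-09). It was also called in all 4 fits that left out a library. Ttc9b, a tetratricopeptide repeat gene, had 5.95 and 6.41 in FFPE and frozen brain, against 3.27 and 1.88 in FFPE and frozen heart, a difference of 3.61 ± 0.37. The long noncoding RNA gene A230051N06Rik had 5.68 and 6.44 in FFPE and frozen brain, against 3.07 and 1.63 in FFPE and frozen heart, a difference of 3.71 ± 0.41. These 2 genes, and Gm10837 with a difference of 3.69 ± 0.49, lost their call only when frozen brain was left out.

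The other 6 of the 10 genes with the largest differences toward brain had 0 reads in at least 1 heart library or under 10 in both. Ldoc1, an X-linked gene derived from a retrotransposon, had 62 reads in FFPE brain and 58 in frozen brain, against 2 in FFPE heart and 0 in frozen heart. Scaled for library size, its ratio of brain to heart reads was 39.4, with an exact 95% counting interval of 10.7 to 329. For the noncoding gene Gm17750, with 94 reads in the brain libraries and 1 in the heart libraries, the ratio was 61.7 (10.8 to 2461). Cdr1os, the noncoding transcript from whose locus the circular RNA Cdr1as arises, had 164 reads in the brain libraries and 8 in the heart libraries, a ratio of 13.5 (6.67 to 31.7). The same ratio was 12.6 (4.74 to 47.5) at Mir9-2, 12.7 (5.27 to 40.1) at Mir124a-3 and 4.99 (2.90 to 9.20) at the noncoding gene 1700021N21Rik. These intervals pool FFPE and frozen reads and include only the error of counting, and reads copied by amplification are not separate molecules. They are thus too narrow to bound the size of these differences. At 1700021N21Rik the fitted difference, 11.75-fold, lay outside its counting interval.

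Among the 10 largest differences toward heart were genes of heart muscle and of the vessel wall. Hand2 (chr8:57320983-57324517), a transcription factor of the developing ventricles, had 3.14 log2 CPM (46 reads) in FFPE brain and 3.46 (26 reads) in frozen brain, against 6.17 (235 reads) in FFPE heart and 7.37 (293 reads) in frozen heart. Its brain libraries lay far below its heart libraries, with a difference of -3.47 ± 0.27 (limma adjusted p = 1.0e-08). Lmod2, which sets thin filament length, had 3.52 and 0.54 in FFPE and frozen brain, against 5.38 and 5.83 in FFPE and frozen heart. Frozen brain held only 3 reads at Lmod2, and the fitted difference of -3.58 ± 0.53 joined -1.86 in FFPE tissue with -5.29 in frozen tissue. The same unevenness was seen at Myl3, a ventricular myosin light chain, with 2.71 and 0.54 in FFPE and frozen brain, against 4.76 and 4.48 in FFPE and frozen heart. Lmod2 and Myl3 lost their calls when frozen brain or frozen heart was left out. Cav3, the caveolin of muscle membranes, had 19 reads in the brain libraries and 113 in the heart libraries, a scaled ratio of 0.110 (0.0640 to 0.180), and lost its call without FFPE brain, frozen brain or frozen heart.

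The vessel genes among the 10 were called whichever library was left out. Cd93, a receptor of endothelial cells, had 5.49 log2 CPM in FFPE brain and 4.89 in frozen brain, against 8.35 in FFPE heart and 8.06 in frozen heart. The gap between the organs was wide and alike in both kinds of tissue, with a difference of -3.01 ± 0.18 (limma adjusted p = 3.2e-10). Aplnr, the apelin receptor, had 4.39 and 3.88 in FFPE and frozen brain, against 7.08 and 7.22 in FFPE and frozen heart. Gpihbp1, which carries lipoprotein lipase to the inner face of capillaries, had 2.62 and 2.49 in FFPE and frozen brain, against 5.40 and 6.06 in FFPE and frozen heart. The differences were -3.01 ± 0.23 at Aplnr and -3.17 ± 0.35 at Gpihbp1. At the other 3 genes, also called whichever library was left out, kidney and liver lay near heart rather than near brain. Ifitm2, an interferon-induced antiviral membrane protein, had 2.09 and 3.46 in FFPE and frozen brain, against 5.71 and 6.54 in FFPE and frozen heart, while the 4 kidney and liver libraries lay between 4.90 and 7.07. Tcim, a small regulator of transcription, had a difference of -3.07 ± 0.24, and its kidney and liver libraries lay between 5.86 and 7.97 beside 6.69 in FFPE heart and 7.24 in frozen heart. The same held for Hoxb2, a homeobox gene of the hindbrain and trunk, described with its family below.

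**Figure D2:**
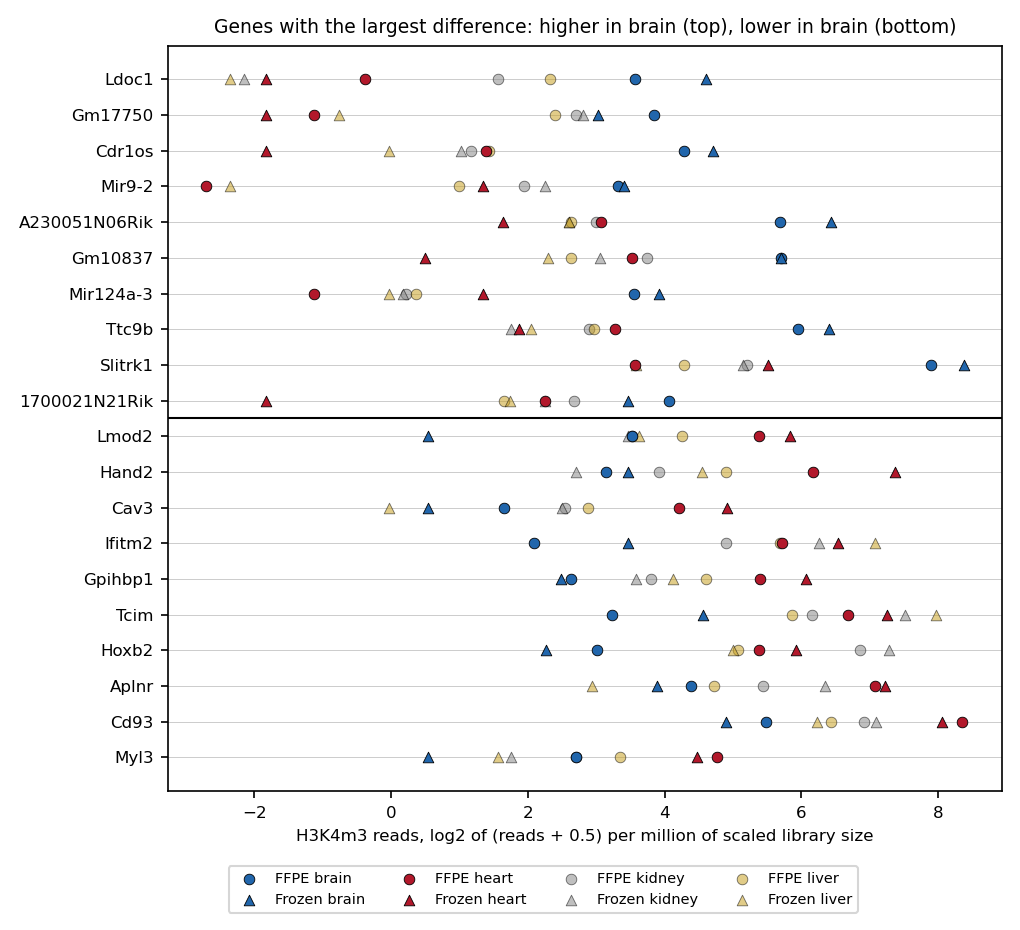
H3K4m3 level (log2 CPM, horizontal axis) of the 10 genes with the largest called difference in each direction, with FFPE libraries as circles and frozen libraries as triangles. As the choice of these genes required, both brain libraries (blue) lie on one side of both heart libraries (red). Among genes lower in brain, kidney (grey) and liver (yellow) lie near heart at Ifitm2, Tcim and Hoxb2. Among genes higher in brain, they lie near heart at Ttc9b and A230051N06Rik, but kidney lies near brain at Gm17750.

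Promoter sequences of 6 genes named in this report show part of the range of CpG content over which the organs differed. They are from RefSeq on GRCm38, run from 250 bases before to 50 bases after an annotated transcript start on the gene's strand, and are printed 5′ to 3′ with CpG dinucleotides in capitals. Grin1 and Kcnc1, a fast potassium channel of neurons, were higher in brain and have 33 and 41 CpGs. Kcna5, a potassium channel of atrial muscle, Hand2, Nkx2-5 and Myl3 were lower in brain and have 4, 17, 9 and 1. Direction and CpG number did not go together at every gene. Syt1 and Slitrk1, higher in brain, have 8 and 9 CpGs in their windows, and Klf4, lower in brain, has 40. The start used lies at the edge of the annotated gene for 4 of the 6 printed genes, but 249 bases inside it for Kcnc1 and 3423 bases inside it for Nkx2-5.
Grin1 (chr2:25319138-25319437, minus strand): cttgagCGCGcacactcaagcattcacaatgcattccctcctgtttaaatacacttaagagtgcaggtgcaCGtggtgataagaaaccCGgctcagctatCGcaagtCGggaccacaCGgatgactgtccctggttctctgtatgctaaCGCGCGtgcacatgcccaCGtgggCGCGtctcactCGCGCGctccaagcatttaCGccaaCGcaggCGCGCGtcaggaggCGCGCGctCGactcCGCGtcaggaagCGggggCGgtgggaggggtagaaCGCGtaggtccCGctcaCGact
Kcnc1 (chr7:46396218-46396517, plus strand): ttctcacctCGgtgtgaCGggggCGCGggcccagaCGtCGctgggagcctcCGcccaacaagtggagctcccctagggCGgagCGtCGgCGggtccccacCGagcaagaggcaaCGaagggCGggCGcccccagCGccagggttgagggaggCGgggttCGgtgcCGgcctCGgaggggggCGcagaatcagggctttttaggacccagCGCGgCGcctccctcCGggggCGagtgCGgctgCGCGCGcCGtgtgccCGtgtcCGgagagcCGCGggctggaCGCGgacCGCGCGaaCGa
Kcna5 (chr6:126535506-126535805, minus strand): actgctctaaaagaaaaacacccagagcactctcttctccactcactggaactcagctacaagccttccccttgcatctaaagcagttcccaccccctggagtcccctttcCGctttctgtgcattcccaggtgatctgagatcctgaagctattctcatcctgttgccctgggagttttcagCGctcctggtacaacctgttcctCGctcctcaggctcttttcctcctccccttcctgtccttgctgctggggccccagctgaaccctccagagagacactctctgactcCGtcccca
Hand2 (chr8:57320733-57321032, plus strand): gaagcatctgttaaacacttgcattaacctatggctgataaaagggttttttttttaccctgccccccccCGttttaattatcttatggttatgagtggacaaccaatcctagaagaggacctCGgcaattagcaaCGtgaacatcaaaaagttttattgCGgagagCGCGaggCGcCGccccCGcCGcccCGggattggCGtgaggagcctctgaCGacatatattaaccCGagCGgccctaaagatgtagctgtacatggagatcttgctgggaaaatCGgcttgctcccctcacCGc
Nkx2-5 (chr17:26841516-26841815, minus strand): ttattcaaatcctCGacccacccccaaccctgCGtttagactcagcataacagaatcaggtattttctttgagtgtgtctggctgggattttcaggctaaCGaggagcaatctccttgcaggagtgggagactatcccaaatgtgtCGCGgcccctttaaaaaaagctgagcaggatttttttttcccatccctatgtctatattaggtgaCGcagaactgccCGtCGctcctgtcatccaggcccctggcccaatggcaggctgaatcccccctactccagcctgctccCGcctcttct
Myl3 (chr9:110763428-110763727, plus strand): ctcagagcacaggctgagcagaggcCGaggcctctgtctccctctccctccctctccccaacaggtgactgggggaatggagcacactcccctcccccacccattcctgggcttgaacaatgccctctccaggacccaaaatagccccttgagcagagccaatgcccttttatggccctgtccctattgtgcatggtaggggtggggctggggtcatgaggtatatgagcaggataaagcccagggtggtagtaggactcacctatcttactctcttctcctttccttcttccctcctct
The window of Myl3 holds a match to the CArG box, the motif bound by serum response factor, starting at base 166 of the printed sequence. The windows of Grin1 and Kcnc1, and also those of Kcna5, Hand2 and Nkx2-5, hold none of the CArG box, the MEF2 box, the RE1 motif or the TATA box.

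Over all genes with such a sequence, promoters of genes higher in brain were richer in CpG than those of genes lower in brain. A sequence was found for 18293 of the 25636 tested genes, and the first entry was used for the 2817 with several. The median ratio of observed to expected CpG was 0.653 for 1115 genes higher in brain, 0.546 for 1033 genes lower in brain and 0.573 for all 18293. A ratio under 0.4 was found at 24.7% of the genes higher in brain, 37.0% of those lower in brain and 39.1% of all. This was unlike between the gene groups described below: the median ratio was 0.805 over 13 glutamate receptor promoters and 0.817 over 8 of cardiac transcription factors, but 0.229 over 12 of thick and thin filament genes and 0.202 over 9 of endothelial markers. Motifs were searched on both strands as letters only. The CArG box was present in 1.35% of promoters of genes higher in brain, 2.81% of those lower in brain and 1.54% of all, and in 3 of the 12 of the thick and thin filament list. The RE1 motif TTCAGCACC, part of the element bound by the repressor REST, was present in 0.718% of promoters of genes higher in brain, 0.0968% of those lower in brain and 0.405% of all, which are 8, 1 and 74 promoters. The MEF2 box was present in 0.718%, 0.968% and 0.552% of these 3 sets, the E-box CANNTG in 65.4%, 68.3% and 69.0%, the GATA site AGATAA in 5.74%, 8.33% and 9.81%, and the TATA box TATAAA in 7.18%, 11.9% and 12.9%. These shares are descriptions of letters in windows and were not tested.

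**Figure D3:**
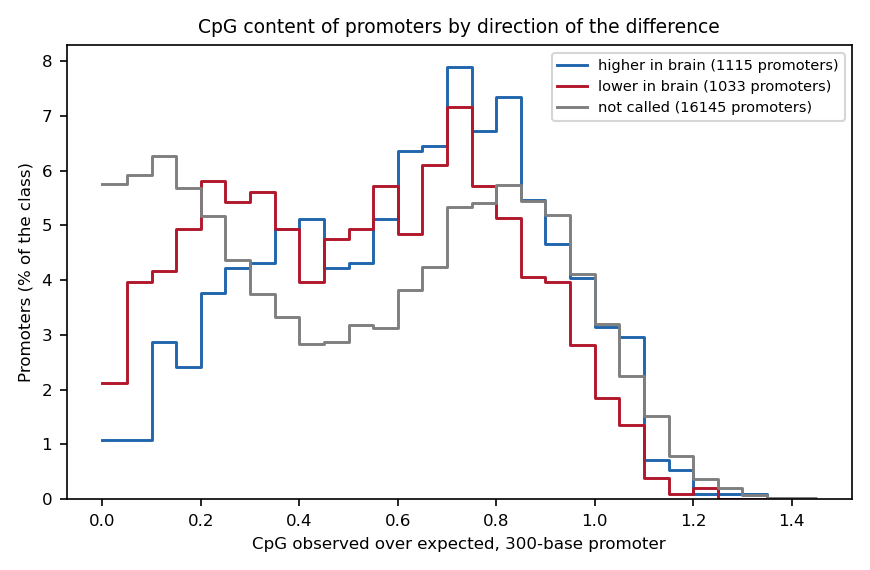
Distribution of the ratio of observed to expected CpG (horizontal axis) in 300-base promoters, as a percentage of each class (vertical axis), for 1115 genes higher in brain, 1033 lower in brain and 16145 not called. The class higher in brain has fewer promoters at ratios under 0.4 (24.7%) than the class lower in brain (37.0%) and than the genes not called (40.2%).

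Neuronal genes carried more H3K4m3 in brain in each of 5 groups examined. Of 98 genes in 5 neuronal lists, 74 were higher in brain, 1 was lower in brain and 23 were not called, with a median difference of 1.29 against 0.026 over all tested genes. Glutamate receptors, the main excitatory receptors of the brain, had 17 of 22 genes higher in brain and a median of 1.34. Grin1, with the levels given above, was higher in brain by 2.21 ± 0.20. Grin2d, an NMDA receptor subunit more used early in life, was the member farthest the other way, with 5.69 and 6.00 in FFPE and frozen brain, against 5.93 and 6.55 in FFPE and frozen heart. Its interval of -0.82 to 0.02 held 0.

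Receptors for the inhibitory transmitters GABA and glycine had 13 of 18 genes higher in brain, with a median of 1.51, and all 18 differences were above 0. Gabrb2, a subunit of the most common GABA-A receptors, had 7.13 log2 CPM in FFPE brain and 7.18 in frozen brain, against 4.99 in FFPE heart and 5.09 in frozen heart. Both kinds of tissue gave nearly the same gap, and the difference of 2.11 ± 0.20 (limma adjusted p = 8.9e-08) was called whichever library was left out. In the fit of 8 libraries 11 glutamate receptors and 9 GABA and glycine receptors were called higher in brain. With 1 library left out these counts were 8 and 10 with FFPE brain left out, 2 and 1 without frozen brain, 4 and 3 without FFPE heart, and 7 and 6 without frozen heart.

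Genes of synaptic vesicles and transmitter release had 20 of 25 members higher in brain, with a median of 1.17. Syt4, a synaptotagmin of dense-core vesicles, differed by 2.20 ± 0.23, beside 2.22 ± 0.24 at Syt1. Stx1a, a membrane fusion protein of the nerve ending, was not called, with 4.15 and 4.04 in FFPE and frozen brain, against 4.11 and 4.68 in FFPE and frozen heart. Neural RNA-binding and splicing genes had 10 of 12 members higher in brain, with a median of 1.44, among them Elavl4 (2.20 ± 0.22) and Elavl3 (1.90 ± 0.21), both stabilisers of neuronal messenger RNAs. Nova2, a neuronal splicing regulator, had 7.04 and 7.08 in FFPE and frozen brain, against 7.36 and 7.15 in FFPE and frozen heart, so its levels were alike in the organs to within an interval of -0.55 to 0.16. Fits of 8 libraries called 9 vesicle genes and 7 RNA-binding genes higher in brain. Leaving out 1 library gave 7 and 7 with FFPE brain left out, 0 and 0 without frozen brain, 1 and 2 without FFPE heart, and 5 and 4 without frozen heart.

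Regulators of neuronal identity and cytoskeletal genes of neurons had 14 of 21 members higher in brain and 1 lower in brain, with a median of 1.18. Neurod1 (chr2:79452637-79456636), a transcription factor that drives neuronal differentiation, had 7.62 log2 CPM (1040 reads) in FFPE brain and 7.40 (405 reads) in frozen brain, against 4.19 (59 reads) in FFPE heart and 4.37 (36 reads) in frozen heart. The brain libraries were far above the heart libraries in both kinds of tissue, and the difference of 3.23 ± 0.21 (limma adjusted p = 1.0e-09) was called whichever library was left out. Neurod2, its relative in cortical neurons, had 7.38 and 7.23 in FFPE and frozen brain, against 5.32 and 4.62 in FFPE and frozen heart, a difference of 2.34 ± 0.20. Lhx6, a factor of cortical interneurons, was lower in brain, with 4.68 and 4.45 in FFPE and frozen brain, against 5.56 and 6.32 in FFPE and frozen heart. Its difference was -1.38 ± 0.26 (limma adjusted p = 0.00063), its levels in liver were 5.92 in FFPE and 6.19 in frozen tissue, and the call was lost without frozen brain or frozen heart. The fit of 8 libraries called 9 genes of this list higher and 1 lower in brain, and the higher count was 6 with FFPE brain left out, 2 without frozen brain, 2 without FFPE heart and 4 without frozen heart.

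**Figure D4:**
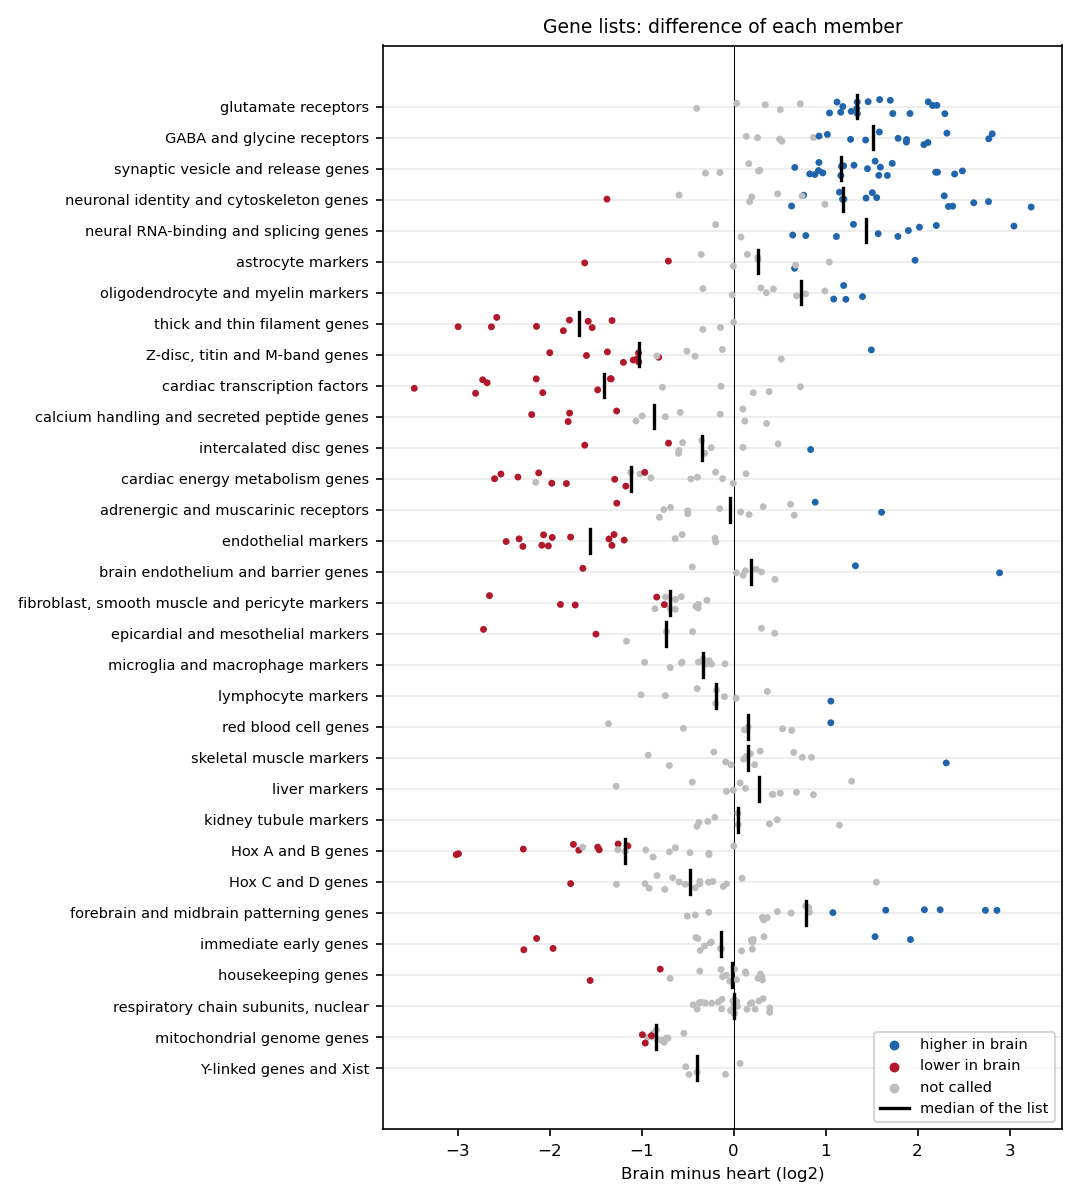
Difference of brain minus heart (log2, horizontal axis) of each member of the gene lists, ion channels left out; coloured points were called and black bars are list medians. The 5 neuronal lists at the top have medians between 1.17 and 1.51, and thick and thin filament genes, cardiac transcription factors and endothelial markers have medians of -1.68, -1.41 and -1.56.

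Genes that pattern the embryo along the body axis split between the organs. Among 17 genes of forebrain and midbrain patterning, 6 were higher in brain and 0 were lower, with a median of 0.78. Zic1, a zinc finger factor of the dorsal neural tube and cerebellum, had 7.98 log2 CPM in FFPE brain and 7.59 in frozen brain, against 4.96 in FFPE heart and 4.89 in frozen heart. Zic2, its relative, had 7.74 and 7.41 in FFPE and frozen brain, against 5.05 and 4.62 in FFPE and frozen heart. These genes stood far above heart in both brain libraries, with differences of 2.86 ± 0.19 and 2.74 ± 0.19 that were called whichever library was left out, although reads at Zic1 may come in part from the overlapping Zic4. Otx1, a forebrain factor, had 4.55 and 4.47 in FFPE and frozen brain, against 4.99 and 5.04 in FFPE and frozen heart, and was not called.

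Hox genes, whose clusters are used from the hindbrain down to the tail, went the other way in the A and B clusters: 9 of 21 were lower in brain and 0 were higher, with a median of -1.18. Hoxb4 (chr11:96318267-96321638) had 3.57 log2 CPM in FFPE brain and 2.49 in frozen brain, against 6.17 in FFPE heart and 5.87 in frozen heart. Hoxb2 had 3.01 and 2.26 in FFPE and frozen brain, against 5.38 and 5.92 in FFPE and frozen heart. Both lay well below heart in both brain libraries, with differences of -2.99 ± 0.31 at Hoxb4 and -3.02 ± 0.37 at Hoxb2, and kidney was higher still at 6.86 to 7.65 in its 4 values for these genes. Reads there are shared in part with the overlapping Hoxb3 and Hoxb3os. Hoxa9, nearer the tail end of its cluster, had 4.00 and 3.76 in FFPE and frozen brain, against 4.09 and 3.67 in FFPE and frozen heart, and so did not separate the organs. In the C and D clusters 1 of 18 genes was lower in brain, near the 5.60% of all tested genes. It was Hoxd9, with a difference of -1.77 ± 0.33. The fit of 8 libraries called 8 Hox A and B genes lower and 5 patterning genes higher in brain. Without 1 library the counts were 7 and 5 (FFPE brain), 4 and 4 (frozen brain), 5 and 4 (FFPE heart), and 4 and 4 (frozen heart).

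Heart muscle genes carried less H3K4m3 in brain. Over 6 lists of 83 genes, 42 were lower in brain, 2 were higher in brain and 39 were not called, with a median difference of -1.03. Cardiac transcription factors had 9 of 14 genes lower in brain and a median of -1.41. Gata6 had 4.32 log2 CPM in FFPE brain and 4.27 in frozen brain, against 6.76 in FFPE heart and 7.29 in frozen heart, a difference of -2.73 ± 0.22 (limma adjusted p = 1.8e-08). Gata6 and Hand2 were called whichever library was left out, and Nkx2-5 lost its call without FFPE brain, frozen brain or frozen heart. Mef2c, which serves both heart muscle and neurons, lay the other way, with 5.92 and 5.74 in FFPE and frozen brain, against 5.72 and 4.48 in FFPE and frozen heart, and was not called (0.73 ± 0.25, limma adjusted p = 0.068).

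Thick and thin filament genes, which encode the contractile proteins, had 9 of 12 members lower in brain and a median of -1.68. Tnni3, the troponin I of heart muscle, had 2.87 log2 CPM (38 reads) in FFPE brain and 2.59 (14 reads) in frozen brain, against 4.76 (88 reads) in FFPE heart and 5.96 (110 reads) in frozen heart. Myh7, the beta myosin heavy chain, had 5.26 and 4.97 in FFPE and frozen brain, against 6.79 and 7.15 in FFPE and frozen heart. Brain lay below heart in both kinds of tissue at each, by -2.63 ± 0.38 and -1.85 ± 0.21, though reads at Myh7 are shared with the noncoding Mhrt and with Mir208b. Z-disc, titin and M-band genes, which anchor and align the filaments, had 9 of 15 members lower and 1 higher in brain, with a median of -1.03. Ldb3, a protein of the Z-disc, differed by -1.20 ± 0.21. Nebl, the heart relative of nebulin, was the 1 higher in brain, with 5.36 and 5.67 in FFPE and frozen brain, against 4.43 and 3.60 in FFPE and frozen heart, a difference of 1.50 ± 0.30 (limma adjusted p = 0.0011).

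The other heart muscle lists were called in part. Calcium handling and secreted peptide genes had 4 of 12 members lower in brain, led by Jph2, which holds the calcium store at the cell membrane (-2.19 ± 0.28), and Hrc, a calcium-binding protein of that store (-1.78 ± 0.26). Ryr2, its calcium release channel, was not called, with 7.51 and 7.30 in FFPE and frozen brain, against 7.27 and 6.82 in FFPE and frozen heart. Energy metabolism genes had 9 of 19 members lower in brain and a median of -1.12, including the fatty acid transporter Cd36 (-2.12 ± 0.24) and lipoprotein lipase, Lpl (-1.98 ± 0.24), which vessel and fat cells also use. Fabp3, a fatty acid carrier of heart muscle, had 4.13 and 4.33 in FFPE and frozen brain, against 4.19 and 4.01 in FFPE and frozen heart. Genes of the intercalated disc, which joins heart muscle cells, had 2 of 11 members lower and 1 higher in brain. Gja1, the main gap junction protein of the ventricle and also of astrocytes, was lower in brain by -1.62 ± 0.27. Cdh2, the cadherin of both heart muscle and neurons, was higher in brain by 0.84 ± 0.20, a call not kept in the fit of 8 libraries.

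Counts for heart muscle varied with the libraries used. In the fit of 8 libraries the genes lower in brain were 7 cardiac transcription factors, 6 filament genes, 5 Z-disc genes, 3 calcium and peptide genes and 7 metabolism genes. Without FFPE brain they were 5, 2, 1, 1 and 2 in the same order, and without frozen brain 4, 0, 0, 0 and 0. Without FFPE heart they were 6, 6, 0, 2 and 1, and without frozen heart 4, 0, 0, 0 and 3. Transcription factors thus had called members whichever library was left out, and the other 4 lists did not.

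Ion channels divided in a gene-specific way. Of 72 genes of 4 channel families, 36 were higher in brain, 4 were lower in brain and 32 were not called. The 4 lower in brain were all potassium channels. Kcna1 (chr6:126636463-126645801), an axonal potassium channel, had 8.65 log2 CPM (2124 reads) in FFPE brain and 8.99 (1226 reads) in frozen brain, against 5.76 (176 reads) in FFPE heart and 5.84 (101 reads) in frozen heart. Kcna5 (chr6:126532551-126535555), on the same chromosome and of the same Kv1 family, had 4.67 (134 reads) and 4.93 (73 reads) in FFPE and frozen brain, against 7.12 (455 reads) and 7.13 (248 reads) in FFPE and frozen heart. The organs were thus ordered in opposite ways at these relatives, by 3.03 ± 0.17 at Kcna1 (limma adjusted p = 2.4e-10) and -2.33 ± 0.20 at Kcna5 (limma adjusted p = 3.8e-08). Kcna1 was called whichever library was left out, and Kcna5 lost its call only without frozen heart.

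Other potassium channels of neurons were high in brain. Kcnc1, which lets neurons fire fast, had 8.30 log2 CPM in FFPE brain and 8.27 in frozen brain, against 4.87 in FFPE heart and 5.23 in frozen heart. Kcna2, a partner of Kcna1 in axons, had 8.11 and 7.85 in FFPE and frozen brain, against 6.51 and 5.64 in FFPE and frozen heart. Kcnk1, a leak channel, had 6.78 and 7.00 in FFPE and frozen brain, against 3.60 and 4.20 in FFPE and frozen heart. These differences of 3.24 ± 0.18, 1.90 ± 0.18 and 2.99 ± 0.23 kept their calls in all 4 fits with a library left out, as did that of the calcium-activated channel Kcnn2 (2.19 ± 0.28). Kcnn2 was not high in brain alone, with 5.5 and 6.2 in FFPE and frozen brain beside 5.5 and 6.9 in FFPE and frozen liver. Kcnq3, a subunit of the channels that carry the M-current of neurons, differed by 2.17 ± 0.42. Its relative Kcnq1, which repolarises heart muscle, differed the other way by -0.85 ± 0.26 (limma adjusted p = 0.036), a call lost in the fit of 8 libraries and in each fit with 1 left out. Among the inward rectifiers gated by G proteins, Kcnj3, Kcnj6 and Kcnj9 were higher in brain by 1.66 ± 0.24, 1.75 ± 0.27 and 1.92 ± 0.22. Kcnj5, the member paired with Kcnj3 in the atrium, was lower in brain by -1.42 ± 0.27, and Kcnj8, a channel sensitive to ATP and found in vascular cells, by -1.25 ± 0.32. Kcnj5 and Kcnj8 were called with 8 libraries but not with 1 left out, and Kcnj3 was called in neither (limma adjusted p = 0.062 with 8 libraries). Kcnj6 kept its call in 1 and Kcnj9 in 3 of the 4 fits with a library left out.

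**Figure D5:**
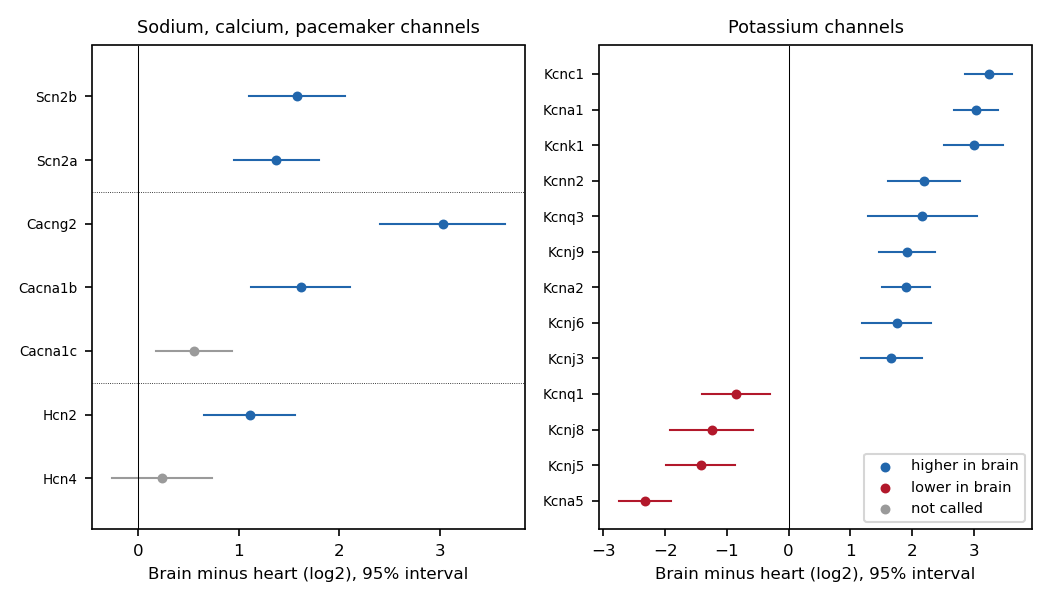
Difference of brain minus heart (log2, horizontal axis) with its 95% interval for 20 channel genes described beside it: 2 sodium, 3 calcium and 2 pacemaker channel genes (left, between dotted lines) and 13 potassium channel genes (right). In blue are 14 genes called higher in brain, up to 3.24 at Kcnc1, in red the 4 called lower in brain, down to -2.33 at Kcna5, and in grey the 2 not called.

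Voltage-gated sodium channels had 6 of 13 genes higher in brain and 0 lower, with a median of 0.42. Scn2a, the channel of the axon initial segment, had 6.78 log2 CPM in FFPE brain and 6.41 in frozen brain, against 5.52 in FFPE heart and 4.92 in frozen heart. The brain libraries were higher, by 1.38 ± 0.21, and its auxiliary subunit Scn2b was higher in brain by 1.58 ± 0.23. Calcium channels had 10 of 19 genes higher in brain, with a median of 0.62. Cacng2, which carries AMPA receptors to the synapse, had 6.05 and 6.15 in FFPE and frozen brain, against 3.31 and 2.82 in FFPE and frozen heart, and Cacna1b, the N-type channel of nerve endings, had 6.58 and 7.89 in FFPE and frozen brain, against 5.66 and 5.58 in FFPE and frozen heart. The differences were 3.03 ± 0.30 and 1.62 ± 0.24. Cacna1c, the L-type channel of heart muscle that neurons also use, was chosen after its values were seen: it lay 0.55 higher in brain with an interval of 0.18 to 0.93 and was not called (limma adjusted p = 0.051). Among the pacemaker channels, Hcn2 was higher in brain by 1.11 ± 0.22. Hcn4, the channel of the sinus node, was likewise chosen after its values were seen, and its interval of -0.27 to 0.73 held 0.

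Of the 32 channel genes not called, 24 had intervals lying between -1 and 1, so that a difference of more than 2-fold was outside them. For the others the interval reached past 2-fold. In the fit of 8 libraries 12 potassium, 3 sodium and 5 calcium channel genes were called higher in brain. These counts were 12, 2 and 3 with FFPE brain left out, 6, 0 and 0 without frozen brain, 9, 0 and 1 without FFPE heart, and 9, 1 and 1 without frozen heart. Receptors for adrenaline and acetylcholine, through which nerves control the heart, had 2 of 14 members higher and 1 lower in brain. Adra2c was higher in brain by 1.61 ± 0.22.

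Endothelial markers were lower in brain at 12 of 16 genes and higher at 0, with a median of -1.56 and all 16 differences below 0. Kdr, the main receptor for vascular endothelial growth factor, had 5.33 log2 CPM in FFPE brain and 5.44 in frozen brain, against 7.44 in FFPE heart and 7.36 in frozen heart. Egfl7, a secreted protein of vessels, had 4.38 and 4.33 in FFPE and frozen brain, against 6.63 and 6.74 in FFPE and frozen heart. The gap was near 2 log2 units in both kinds of tissue at both genes, with differences of -2.01 ± 0.19 (limma adjusted p = 9.5e-08) and -2.33 ± 0.22 (limma adjusted p = 1.3e-07). The fit of 8 libraries called 11 endothelial markers lower in brain. Markers of this list were also called lower in brain whichever library was left out, Kdr and Egfl7 in each of these fits. Whether the other markers called were the same in each fit is not reported here. Genes of brain endothelium and the blood-brain barrier were mixed, with 2 of 10 higher and 1 lower in brain. Cldn5, a tight junction protein abundant at that barrier, was lower in brain, with 4.53 and 4.58 in FFPE and frozen brain, against 5.84 and 6.54 in FFPE and frozen heart.

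Connective tissue and covering layers also leaned toward heart. Fibroblast, smooth muscle and pericyte markers had 5 of 15 members lower in brain and all 15 differences below 0, with a median of -0.69. Tcf21, a factor of heart fibroblasts, had 36 and 6 reads in FFPE and frozen brain, against 62 and 68 in FFPE and frozen heart, a difference of -2.65 ± 0.50. Dcn, a proteoglycan of connective tissue, was lower in brain by -1.88 ± 0.31. Wt1, a factor of the epicardium and of some vessels, had 3.80 and 2.86 in FFPE and frozen brain, against 5.90 and 6.20 in FFPE and frozen heart. Its difference of -2.72 ± 0.31 was called in all 4 fits with a library left out, and with Tbx18 (-1.50 ± 0.27) it made 2 of 7 epicardial and mesothelial markers lower in brain. For the fibroblast list, the counts lower in brain were 3 with 8 libraries, 1 with FFPE brain left out, 1 without frozen brain, 1 without FFPE heart and 0 without frozen heart.

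Glial markers were called in part. Oligodendrocyte and myelin markers had 4 of 12 genes higher in brain and a median of 0.73. Mbp, a structural protein of myelin, had 6.78 log2 CPM in FFPE brain and 7.35 in frozen brain, against 5.73 in FFPE heart and 5.59 in frozen heart, a difference of 1.40 ± 0.20. Olig1, an oligodendrocyte factor, was higher in brain than in heart by 1.20 ± 0.28. It was not high in brain alone, with 5.10 and 5.75 in FFPE and frozen brain beside 5.76 and 5.74 in FFPE and frozen liver. Astrocyte markers had 2 of 11 genes higher and 2 lower in brain, with Aldoc, an enzyme of glycolysis, at 1.97 ± 0.37 and the gap junction gene Gja1 at -1.62. With a library left out of the fit of 8, at most 1 gene of either list was called higher in brain. Microglia and macrophage markers had 0 of 12 called in limma and in the fit of 8 libraries. Of them, 2 had an unadjusted limma p under 0.05, beside 5365 of all 25636 tested genes, and all 12 differences were below 0. The closest to a call was Cd68, a lysosomal protein of macrophages, with 3.95 and 3.88 in FFPE and frozen brain, against 5.25 and 4.51 in FFPE and frozen heart (-0.97 ± 0.32, limma adjusted p = 0.052).

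Further marker lists covered other organs, skeletal muscle and blood. Liver markers and kidney tubule markers had 0 of 12 and 0 of 9 genes called in limma, and 0 called in the fit of 8 libraries. An unadjusted limma p under 0.05 was found at 5 and 1 of them, beside 5365 of all 25636 tested genes. Lymphocyte markers had 1 of 9, Cd4, higher in brain by 1.06 ± 0.26, and red blood cell genes had 1 of 7, the anion exchanger Slc4a1, higher in brain by 1.06 ± 0.28. These counts stand beside 6.00% of all tested genes called higher in brain. Neither Cd4 nor Slc4a1 was called in the fit of 8 libraries. Skeletal muscle markers had 1 of 14 genes called, beside 11.6% of all tested genes. It was Acta1, the actin of skeletal muscle that is also made in heart, which was higher in brain, with 5.69 log2 CPM (271 reads) in FFPE brain and 6.44 (209 reads) in frozen brain, against 3.40 (34 reads) in FFPE heart and 4.11 (30 reads) in frozen heart. The brain libraries lay far above the heart libraries in both kinds of tissue, by 2.31 ± 0.26 (limma adjusted p = 1.3e-06). With 8 libraries in the fit it missed the threshold (limma adjusted p = 0.053), and kidney and liver lay between 1.11 and 3.89.

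Immediate early genes, which cells switch on within minutes of a stimulus, were called in both directions: 2 of 19 were higher and 3 lower in brain. Npas4, induced by activity in neurons, had 6.24 log2 CPM in FFPE brain and 6.81 in frozen brain, against 5.00 in FFPE heart and 4.20 in frozen heart. Klf4, a factor used in endothelium and smooth muscle, had 5.47 and 5.82 in FFPE and frozen brain, against 7.46 and 8.11 in FFPE and frozen heart. Zfp36, which speeds the decay of inflammatory messenger RNAs, had 5.35 and 5.20 in FFPE and frozen brain, against 7.25 and 7.86 in FFPE and frozen heart. Npas4 was thus higher in brain (1.92 ± 0.26) and the others lower in brain (-2.14 ± 0.18 at Klf4 and -2.28 ± 0.20 at Zfp36). Klf4 kept its call whichever library was left out, Zfp36 lost it without frozen brain and Npas4 lost it without frozen brain, FFPE heart or frozen heart.

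Of 16 housekeeping genes, which are in use in every cell, 0 were higher and 2 lower in brain, beside 6.00% and 5.60% of all tested genes, and the median was -0.015. B2m, the invariant chain of MHC class I, which neurons make little of, was lower in brain by -1.56 ± 0.29, and Actb, cytoplasmic actin, by -0.80 ± 0.18. Nuclear genes for the respiratory chain, which heart muscle uses heavily, had 0 of 28 genes called by limma and 0 called in the fit of 8 libraries. At an unadjusted limma p under 0.05 there were 0 of the 28, beside 5365 of all 25636 tested genes. The median of the 28 was 0.0078, with differences between -0.44 and 0.39. A separation of the organs at these genes was not detected in these 4 libraries.

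The 13 protein genes of the mitochondrial genome, which has no histones, gave reads that cannot come from a histone mark. Their median difference was -1.74 in FFPE tissue and 0.043 in frozen tissue, and 3 of them were called lower in brain. Reads in mitochondrial genes made up 6.16% of reads in FFPE brain and 4.01% in frozen brain, against 17.0% in FFPE heart and 4.06% in frozen heart. FFPE heart thus stood apart in its share of mitochondrial reads, and the part of this in other results was not tested.

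MicroRNA genes are short and their reads were few. Of 179 microRNA genes tested, 6 were higher and 6 lower in brain, 3.35% each way, beside 6.00% and 5.60% of all tested genes. The 6 higher in brain were Mir9-2, Mir9-3, Mir124a-2, Mir124a-3, Mir129-2 and Mir3093, and the 6 lower in brain were Mir126a, Mir574, Mir1932, Mir1954, Mir3109 and Mir5123. In the fit of 8 libraries Mir124a-2, Mir124a-3, Mir1932, Mir1954, Mir3109 and Mir5123 kept their calls, whereas Mir9-2 (limma adjusted p = 0.082), Mir9-3 (0.19), Mir126a (0.056) and the other 3 did not. None of these microRNA genes kept its call in every fit with a library left out. Mir1932 had the smallest p of those lower in brain, with a difference of -2.55 ± 0.49 (limma adjusted p = 0.00078). All of them except Mir9-2 and Mir124a-3 were chosen after their values were seen. Mir9-2, 1 of the genes of the neural microRNA miR-9, had 52 and 25 reads in FFPE and frozen brain, against 0 and 4 in FFPE and frozen heart. Mir9-3, another of them, had 76 and 60 reads in FFPE and frozen brain, against 7 and 5 in FFPE and frozen heart, a difference of 2.84 ± 0.54. Both yield the same 5′ product, so 1 seed is shown for them below. They also share a 3′ product with another seed, which is not printed. Reads at Mir9-2 may come in part from the overlapping C130071C03Rik and Gm51268. Mir126a lies within the endothelial gene Egfl7 and had 4 and 2 reads in FFPE and frozen brain, against 21 and 10 in FFPE and frozen heart, a difference of -2.73 ± 0.89 (limma adjusted p = 0.048). The mature products, from RefSeq and with the seed (bases 2 to 8) in capitals, are shown because the seed sets which messenger RNAs they bind.
mmu-miR-9-5p: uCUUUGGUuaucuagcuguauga
mmu-miR-126a-3p: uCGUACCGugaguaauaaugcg
Mir124a-3, a gene of the neuronal microRNA miR-124, had 61 and 36 reads in FFPE and frozen brain, against 1 and 4 in FFPE and frozen heart.

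Called genes were not evenly spread over gene lengths or chromosomes. In the fifth of genes with the longest spans, of at least 52824 bases, 12.3% were higher and 6.22% lower in brain, against 2.77% and 3.74% in the fifth with the shortest. Longer genes can gather more reads where whole genes are counted, and the part of read number in these shares was not tested. On the X chromosome 75 of 991 genes were higher in brain (7.57%) and 18 were lower in brain (1.82%), with a median difference of 0.133. Protein-coding genes were called higher at 6.64% and lower at 6.02%, and pseudogenes at 0.260% each way.

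Kidney and liver showed in which organ a called gene stood out. Of the 1539 genes higher in brain, 1224 (79.5%) had both brain libraries above all 4 kidney and liver libraries, against 10.5% of all tested genes. Heart lay below all of these libraries at 108 (7.02%). Of the 1436 genes lower in brain, 616 (42.9%) had brain below all kidney and liver libraries and 544 (37.9%) had heart above them, against 7.37% and 7.33% of all tested genes, and 137 (9.54%) had both. Most genes higher in brain than in heart thus also had higher values in brain than in kidney and liver. The genes were called on these same brain and heart values. Shares above those of all tested genes therefore follow in part from that choice. Of those lower in brain, 413 (28.8%) had neither brain below nor heart above all kidney and liver libraries. Heart lay above them at Kcna5, with kidney and liver between 2.60 and 4.57, below brain as well as heart. Cd93 had both, with kidney and liver from 6.22 to 7.08, above brain and below heart. Kidney and liver entered no test of this comparison other than the fits of 8 libraries.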

How the data were processed

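The authors deposited 1 table of normalized log2 values per gene, with 1 column for each of 4 organs in FFPE and in frozen tissue. Per the submitters' processing notes, Bowtie2, featureCounts, limma and the mouse build mm10 were used. Their versions and roles, and which part of a gene was counted, were not stated in those notes or labels. The columns name no antibody and are treated as H3K4m3 on the strength of the titles of the table and series. The 12 input samples of the series have no column and were not used. Chromatin was prepared differently from frozen and FFPE tissue, per the labels' protocols, and libraries came from either of 2 kinds of kit without saying which, so preservation, preparation and kit cannot be told apart. The deposited log2 values equalled log2 CPM with 0.5 added to the reads. Inverting this gave numbers within 0.001 of a whole read for 100% of values, and these served for read numbers, depth and counting intervals.

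Genes with a mean log2 value of at least 0 over the 4 brain and heart columns were tested. Just inside this limit was gene ID 100862121 with a mean of 0.0026, and just outside was Gm20792 with -0.0005. The test was limma 3.58.1 in R 4.3.3 (lmFit, and eBayes with an intensity trend, two-sided) on the deposited values, with organ and preservation as terms, 1 residual and 21.1 prior degrees of freedom, and Benjamini-Hochberg adjustment over 25636 genes. Errors are limma standard errors and intervals are 95%. The fit was tested on simulated data. Kidney and liver entered only an alternative fit and descriptions. Leaving out a library was done in that fit of 8 libraries, since 4 libraries less 1 leave no residual degree of freedom.

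Symbols were missing for 1275 genes. Gene IDs were matched to a RefSeq table of GRCm38, the assembly that mm10 denotes, at 25275 of 27179 genes. Genes were described in 36 lists. The members and lists were chosen with earlier results of these data known, so the lists are no independent support. Named genes were the 10 largest called differences in each direction with a symbol, no overlap between the organs and a log2 value of at least 3 in both libraries of the higher organ; the 2 members of each list with the smallest p and the member farthest against its median; every called channel gene; and 4 markers. Some genes that this rule names are not reported here.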

Additional observations from a re-analysis of the deposited data

Results flagged for a closer look

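At some gene lists and named genes, the brain minus heart difference had opposite signs in FFPE and frozen tissue. With 1 library for each organ and preservation type, none of these contrasts was tested.

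Among the lists, the widest gap was in the mitochondrial genome, whose median difference was -1.74 in FFPE tissue and 0.043 in frozen tissue; FFPE heart held 17.0% mitochondrial reads. The medians of the lymphocyte list (-0.40 in FFPE tissue, 0.16 in frozen tissue), the kidney tubule list (0.13 and -0.26), the immediate early genes (-0.25 and 0.014) and the nuclear respiratory chain genes (-0.049 and 0.0065) also differed in sign.

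Among genes not called, Hoxd12 differed by -0.015 in FFPE tissue and 3.12 in frozen tissue, where frozen heart held 2 reads. Hbb-bs differed by 0.53 in FFPE tissue and -3.25 in frozen tissue, with 10 reads in both brain libraries together and 7 in both heart libraries together. Myh4, a myosin of fast skeletal muscle, differed by -0.053 in FFPE tissue and 1.75 in frozen tissue. Smaller contrasts were seen at Stx1a (0.035 in FFPE tissue and -0.65 in frozen tissue), Fabp3 (-0.055 and 0.33), Cacnb2 (0.058 and -0.12), Hoxa9 (-0.085 and 0.089) and the Y-linked Kdm5d (-0.13 and 0.27).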

How the results depend on the processing

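The number of called genes moved with the model more than with the scaling. Against 2975 called (1539 higher and 1436 lower in brain), limma called 2722 with no filter on low values, 3088 with a mean log2 of at least 2, 3466 after quantile normalization, 3572 after median centring and 3365 with precision weights on the recovered reads. It called 549 (340 higher, 209 lower) with no preservation term, 1623 (772 higher, 851 lower) with all 8 libraries in the fit, and 0 (0 higher, 0 lower) without the intensity trend, where 4034 genes had an unadjusted p under 0.05. Leaving out 1 library of the 8 gave 956 called (489 higher, 467 lower) without FFPE brain, 276 (93 and 183) without frozen brain, 631 (307 and 324) without FFPE heart and 555 (314 and 241) without frozen heart. The cause of these losses was not tested beyond the smaller number of samples. No result changed its sign past a call under any of these settings. Of the 143 named genes, 112 were called, 89 also with 8 libraries, and 26 in all 4 fits with a library left out. The 20 list medians of at least 0.5 in size kept their sign in every setting except for 1 after quantile normalization and, in the values without a test, 1 without FFPE brain and 1 without FFPE heart. Their sizes were less stable: leaving out 1 library moved 11 to 17 of all 36 medians by more than the SD between the FFPE and frozen medians. Count models (edgeR, DESeq2) were planned if reads could be recovered but were not run, because the deposited values are log2 values. No paired analysis was possible because the columns carry no replicate number; the preservation term compares the organs within FFPE and within frozen tissue. Depth limits genes with few reads: a count of 0 allows up to 1.69 CPM in frozen heart.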
